A study of Mus musculus with 15 samples.

Results

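The Dnmt1 RNA immunoprecipitation (RIP) libraries of this mouse series carry the number 1 or 2 in their titles, and the 3 libraries numbered 2 were set against the 3 numbered 1 with genotype as a block. These 6 libraries were taken from the titles, out of 15 in the series, and no measured value was used to choose them. Each came from tail fibroblast lines of littermates of one sex labelled wild type (WT), heterozygous (Het) or homozygous (Hom) for a Dnmt1 mutation, with 1 library of each number per genotype. RNA held by Dnmt1, the enzyme that copies DNA methylation onto new strands, was pulled down with a rabbit antibody after formaldehyde fixation. The labels name no added treatment, strain or age, and neither the allele nor how many mice or lines stand behind a genotype. Nor do they say what the number denotes: no date, culture or batch goes with it, so p-values reflect how much these libraries vary, and that variation may be purely technical. Whether a number stands for the same preparation in each genotype is not given either, and values over the 3 genotypes rest on taking the numbers as they stand. Both ribosomal RNA depletion and polyA enrichment are named for the precipitated RNA, without a record here of which library had which.

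Macrophages are phagocytes that live in nearly every tissue, skin included. They depend on the growth factor receptor Csf1r and on the transcription factor PU.1, encoded by Spi1. They make the complement protein C1q and lysozyme, and they break down what they engulf in lysosomes rich in cathepsins. Fibroblasts instead build the extracellular matrix of collagens, elastin and proteoglycans. A RIP library reports RNA recovered with the antibody. Without an input for each library, more RNA bound and more RNA present cannot be told apart, and in such bulk RNA neither can more cells of a type and more RNA per cell.

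The libraries held between 217173 counts in genes (WT library 1) and 1362757 (Hom library 2). The 4 dominant entries, Lars2, Gm42418, Gm26917 and Gm10800, took between 5.7 and 63.5% of a library, so a level here means CPM, counts scaled to the library total, with these 4 left out of that total. Outside them, library 1 and library 2 held 193196 and 345638 counts in WT, 598537 and 758970 in Het, and in Hom 376192 and 1190173. Fibroblast identity genes were read in each library, with summed levels of 763 to 1670 for 19 genes. Their sum was higher in library 2 of each genotype: 963 and 1140 in WT, 1350 and 1670 in Het, and in Hom 763 and 1060. Of 13 tested, 8 had positive estimates, with a median log2 fold change of 0.27 and 0 called. Vim ranged from 234 to 730 and Thy1 from 140 to 319, while S100a4, which fibroblasts often express, was at 0 to 5.18. Neuron markers, which a fibroblast line should lack, summed to 3730 to 5910 for 14 genes, against 724 to 1350 in the fibroblast m5C RIP and 9200 to 9860 in the cortex m5C RIP of the same series. Dnmt1 RNA itself stood at 2730 and 3940 in WT, 2050 and 2140 in Het, and in Hom 2470 and 10200 (libraries 1 and 2).

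Macrophage genes stood out among those called higher in library 2, and 4 of their promoters are shown because these genes changed together. Each is the 250 bases before the RefSeq start on GRCm38.p6, minus strand, written 5′ to 3′: Lyz2 at chr10:117282273-117282522, C1qb at chr4:136886201-136886450, C1qc at chr4:136892915-136893164 and Fcrls at chr3:87263525-87263774. Capitals mark GAGGAA, the core of the PU.1 box, or its reverse complement TTCCTC.
Lyz2: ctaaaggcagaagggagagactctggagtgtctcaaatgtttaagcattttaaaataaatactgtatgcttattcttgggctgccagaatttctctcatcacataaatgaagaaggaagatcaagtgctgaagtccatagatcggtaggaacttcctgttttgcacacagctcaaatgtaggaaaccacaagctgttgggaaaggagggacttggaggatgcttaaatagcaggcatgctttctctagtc
C1qb: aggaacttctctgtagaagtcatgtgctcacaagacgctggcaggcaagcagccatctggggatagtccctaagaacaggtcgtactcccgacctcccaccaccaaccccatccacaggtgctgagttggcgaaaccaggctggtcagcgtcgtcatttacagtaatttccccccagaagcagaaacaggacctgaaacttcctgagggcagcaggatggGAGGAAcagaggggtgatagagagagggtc
C1qc: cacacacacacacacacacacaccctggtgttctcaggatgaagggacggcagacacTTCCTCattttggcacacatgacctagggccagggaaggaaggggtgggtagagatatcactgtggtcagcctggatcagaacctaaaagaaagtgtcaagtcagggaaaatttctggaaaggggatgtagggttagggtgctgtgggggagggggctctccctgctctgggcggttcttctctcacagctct
Fcrls: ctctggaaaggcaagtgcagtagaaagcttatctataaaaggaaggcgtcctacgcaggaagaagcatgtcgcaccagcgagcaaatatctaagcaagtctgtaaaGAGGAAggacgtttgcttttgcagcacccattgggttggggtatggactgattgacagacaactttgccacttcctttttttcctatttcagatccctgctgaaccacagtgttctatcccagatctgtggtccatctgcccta
All 4 symbols searched matched the RefSeq table. They were picked by hand: C1qa and Fcer1g, also called, were not searched, and Fcrls is outside the marker list. No share of the called genes with these letters can be read from them. C1qb and Fcrls hold GAGGAA on the sense strand, C1qc holds it on the other strand, and Lyz2 holds no match in this window. The gene spans given below come from GENCODE M21, and the Lyz2, C1qc and Fcrls windows reach into those spans. By them the Fcrls match lies within the gene, and the C1qb and C1qc matches lie before it. Of all 32851 promoter windows of this length, 23.3% hold the letters on either strand, and a match describes the letters, not a bound site.

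Macrophage genes were higher in library 2: 5 of 26 tested were called, and their summed level was higher in each of the 3 genotypes. Lyz2, which encodes the lysozyme of myeloid cells (chr10:117277331-117282321, minus strand, mm10), went from a level of 0 to 929 in WT, from 30.1 to 2880 in Het and from 10.6 to 516 in Hom. The groups did not overlap. In WT library 1 a count of 0 allows up to 3 counts, a level of 15.5, so Lyz2 was at least 59.8-fold higher in WT library 2, with counting error alone behind this bound. Its log2 fold change over the genotypes was 6.57 ± 0.66 (SE, n = 3 and 3; edgeR quasi-likelihood test, adjusted p = 0.00502).

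The 3 chains of C1q, the protein that starts the classical complement cascade and tags debris for uptake, lie side by side on chromosome 4 and were all called. C1qa (chr4:136895917-136898803) stood at 10.4, 28.4 and 0 in library 1 of WT, Het and Hom and at 150, 661 and 152 in library 2 (4.74 ± 0.56). For C1qb (chr4:136880129-136886187) the levels were 0, 13.4 and 10.6 against 86.8, 574 and 124 (4.75 ± 0.54). C1qc (chr4:136889804-136893065) was at 10.4, 18.4 and 18.6 against 89.7, 312 and 66.4 (3.06 ± 0.49, adjusted p = 0.0383). For each chain, the 3 libraries numbered 2 thus lay above all those numbered 1, with Het library 2 the highest. Fcer1g, the signalling chain shared by Fc receptors (chr1:171229572-171234365), went from 0, 3.34 and 5.32 to 37.6, 249 and 27.7 (4.84 ± 0.76, adjusted p = 0.0366). Fcrls, an Fc receptor-like gene known from microglia and tissue macrophages (chr3:87250758-87263738), went from 0, 8.35 and 5.32 to 55, 182 and 55.5 (4.16 ± 0.58, adjusted p = 0.0157). Library 1 values of these genes rest on few counts.

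Of the 30 macrophage markers, 26 passed the filter on low counts, and 4 did not, among them Aif1, Cd53 and Fcgr1. A marker could pass through its library 2 counts alone, so the tested ones are not a neutral draw. Among them, 25 had a positive estimate, 5 were called higher and 0 lower, and the median log2 fold change was 2.09 (1.45 without both Het libraries). Over all 13589 genes tested the median was -0.00456 and 49.7% of estimates were positive, with 0.184% called higher and 0.00736% called lower. These shares are the background for every list below. The count of called markers was 8 with DESeq2, 7 with limma-voom, 10 with total counts alone, 1 without the genotype term and 3 with the filter set by library number. It was 3 without WT library 1 or without both Het libraries, 9 without Het library 1 or Hom library 2, 10 without Hom library 1, and 0 without both WT libraries, where Lyz2 had an adjusted p of 0.156. All 3 libraries numbered 2 lay above all 3 numbered 1 for 13 of the 30 markers, against 6.37% of the genes tested, and below them for 0, against 5.52%. Csf1r, the receptor for the growth factor CSF1, illustrates a marker that was not called: 51.8, 45.1 and 29.2 in library 1 and 60.8, 348 and 147 in library 2 (1.99 ± 0.48, adjusted p = 0.205). In WT its levels were close, and the separation came from Het and Hom.

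Further markers did not pass the threshold. The lysosomal membrane gene Laptm5 (2.98 ± 0.54, adjusted p = 0.0713), the lipid-sensing receptor gene Trem2 (2.67 ± 0.49, adjusted p = 0.0744) and the lipopolysaccharide co-receptor gene Cd14 (3.96 ± 0.80, adjusted p = 0.113) did not overlap between the numbers but were not called. The perforin-like gene Mpeg1 (2.78 ± 0.63), the mannose receptor gene Mrc1 (2.57 ± 0.65) and the integrin gene Itgam (3.04 ± 0.74) showed the same. Spi1, encoding PU.1, stood at 20.7 and 17.4 in WT, 15 and 76.4 in Het, and in Hom 7.97 and 42.9, so its WT pair did not differ in the direction of the others. Adgre1, the F4/80 antigen gene, was at 31.1 and 8.68 in WT, 8.35 and 59.3 in Het, and in Hom 7.97 and 32.8. Cd68, a lysosomal marker, was at 18.6 and 11.8 in Hom and at 3.34 and 121 in Het. The exception in sign was Ptprc, the CD45 gene of all white blood cells, at 25.9 and 72.3 in WT, 55.1 and 34.3 in Het, and in Hom 128 and 67.2 (-0.26 ± 0.49).

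**Figure D1:**
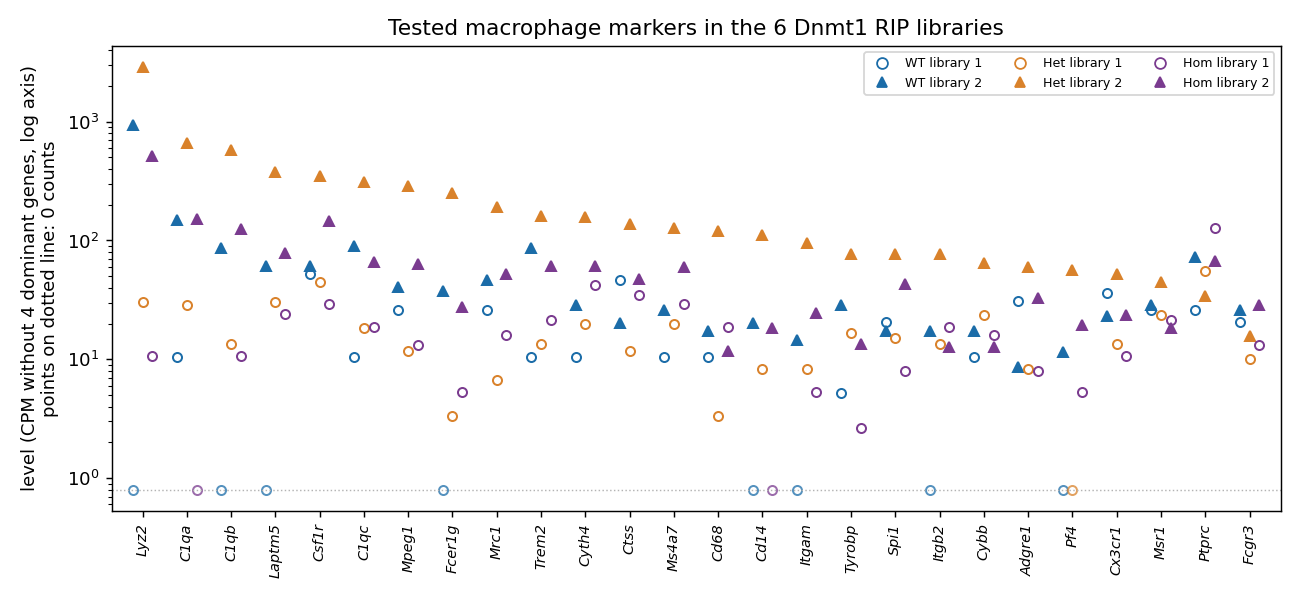
Levels of the 26 tested macrophage markers (CPM with 4 dominant genes left out of the total, log axis) in each Dnmt1 RIP library, ordered by Het library 2. Open circles are library 1 and filled triangles library 2, 1 point per library. Lyz2 reached 2880 in Het library 2, and 8 of the 26 lie on the dotted line of 0 counts in WT library 1.

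Summed over the 30 markers, the level was 393 and 2000 in WT, 493 and 7450 in Het, and in Hom 545 and 1820. Library 2 was 5.07-fold higher in WT, 15.1-fold in Het and 3.34-fold in Hom. Underneath are 76 and 690 counts in WT, 295 and 5652 in Het, and in Hom 205 and 2165. The libraries numbered 1 therefore lay close together, and most of the spread among the libraries numbered 2 came from Het. The Het pair had the largest ratio. Its libraries held 814262 and 804887 counts in genes, but 598537 and 758970 outside the 4 dominant genes, the total to which levels are scaled. In WT and Hom library 2 was the deeper one by either total. The part of depth in these pairs was not tested. Lyz2 supplied 46.5, 38.7 and 28.4% of the sum in library 2 of WT, Het and Hom; without it the sums were 393 and 1070, 463 and 4570, and 534 and 1300. Markers at 0 numbered 11, 1 and 2 in library 1 of WT, Het and Hom and 0 in the 3 libraries numbered 2. At 0 in WT library 1 were Lyz2, C1qb, Fcer1g, Cd14, Itgam, Laptm5, Fcgr1, Pf4, Aif1, Cd53 and Itgb2.

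The fibroblast m5C RIP, which used an antibody against methylated cytosine on messenger RNA of the same kind of line, gave a reference for these sums. There the 30 markers summed to 10700 in WT library 2, 11400 in Het and 19500 in Hom, with a mean of 13800, against 505 in fibroblast input and 294 to 421 in cortex. The input value rests on a shallow library, with 95107 counts outside the 4 dominant genes. WT m5C library 1 was left out of that mean, since its counts were at or above those of the Hom m5C library in every gene. Relative to the mean, the Dnmt1 RIP libraries held 2.84 and 14.4% in WT, 3.56 and 53.8% in Het, and in Hom 3.94 and 13.1%. Macrophage RNA was thus plentiful in the m5C libraries of all 3 genotypes, and in the RIP it came closest to that level in Het library 2.

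Within single genotypes, where 1 library stands against 1 and no test is possible, the size of the difference varied. In WT, 11 of the 26 tested markers were at least 4-fold higher in library 2, against 8.34% of all genes; in Het 19 were, against 3.05%; in Hom 7 were, against 2.91%. None of the 26 was 4-fold lower in any pair, where the shares of all genes were 2.44% in WT, 2.38% in Het and 0.67% in Hom. The median log2 ratios of the list were 1.41, 3 and 1.52, with 0.08, -0.04 and -0.01 for all genes. The Het pair also separated Lilr4b, a leukocyte inhibitory receptor gene (5.01 to 412), Ncf1, a subunit of the phagocyte oxidase (0 to 149), and Pld4, a lysosomal nuclease of phagocytes (3.34 to 249). None of these is in the marker list, and Pld4 in WT was at 31.1 and 43.4.

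Markers of other white blood cells stayed low. Summed levels over the 6 libraries ranged from 65.9 to 113 for dendritic cell genes, 31.8 to 90.4 for neutrophil genes, 51.4 to 88 for T and NK cell genes, 41.4 to 125 for B cell genes and 71.1 to 106 for mast cell genes. MHC class II genes, which activated macrophages and dendritic cells use to present antigen, summed to between 49.2 and 80.2. From these 6 lists, 11 genes passed the filter, 2 of them with a positive estimate, and 0 were called by edgeR, DESeq2 or limma-voom in either direction (0 had an unadjusted p under 0.05 by edgeR). DESeq2 gave no adjusted p to 8431 of the 13589 genes, and these count as not called throughout. A DESeq2 count of 0 can therefore include genes that it could not call. Osteoclast genes, a lineage related to macrophages, summed to 73.5 to 140; 3 of 8 were tested, and the matrix-degrading protease gene Ctsk had the highest estimate (2.31 ± 0.98, adjusted p = 0.803).

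Genes of phagocyte function had smaller medians than the markers. In the list of lysosome and lipid-handling genes, 16 of 19 tested had positive estimates, 1 was called higher (0.184% of all genes), and the median was 1.13. The median was 0.63 without Het library 1, 0.62 without Het library 2 and 0.60 without both, against 1.74 without both WT libraries or with total counts alone. The summed level was 1.35-fold higher in library 2 in WT, 3.87-fold in Het and 1.42-fold in Hom. That gene was Ctsd, encoding the lysosomal protease cathepsin D (chr7:142375911-142388038), at 46.6 and 480 in WT, 190 and 2050 in Het, and in Hom 85.1 and 511 (3.11 ± 0.40, adjusted p = 0.0119). Spp1, the secreted phosphoprotein osteopontin (chr5:104435118-104441050), went from 20.7, 38.4 and 26.6 to 255, 1090 and 188 (3.81 ± 0.46). Both lay higher in library 2 of each genotype. The galectin gene Lgals3, abundant in phagocytes (chr14:47367751-47386160), was at 0, 15 and 0 in library 1 and at 142, 339 and 75.6 in library 2, at least 9.13-fold higher in WT and at least 9.48-fold in Hom. Among chemokine and cytokine genes 14 of 17 estimates were positive (median 1.56, but 1.02 without both Het libraries and 2.51 without both WT libraries). Of these Ccl3, a chemokine of activated macrophages (chr11:83647844-83649355), was called, with 0, 3.34 and 0 against 28.9, 165 and 20.2 (5.55 ± 0.80, adjusted p = 0.0186). Ccl4 and Ccl9, related chemokines, had estimates of 5.47 ± 1.24 and 3.36 ± 0.69 and were not called.

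Antigen presentation genes of MHC class I and interferon response genes also had positive medians. The 2 tested MHC class II genes had a median of -0.13. All 10 tested MHC class I genes had positive estimates, with a median of 1.08 (0.48 without both Het libraries, 1.85 without either Hom library). Of these 1 was called, against 0.184% of all genes called higher: B2m, the light chain that every class I molecule needs (chr2:122147686-122153083), at 5.18 and 81 in WT, 26.7 and 370 in Het, and in Hom 23.9 and 139 (3.27 ± 0.42). Ifitm3, an interferon-induced membrane protein that blocks virus entry (chr7:141009586-141010770), went from 0, 13.4 and 2.66 to 95.5, 347 and 139 (5 ± 0.52, adjusted p = 0.00502). The interferon response list had 17 of 20 positive and a median of 1.02, but 0.40 without Het library 2 and 0.25 without both Het libraries. None of its 20 tested genes was called by edgeR, DESeq2 or limma-voom, and 6 had an unadjusted p under 0.05 by edgeR. Its summed level was 368 and 376 in WT, 399 and 1150 in Het, and in Hom 356 and 544, so the WT pair hardly differed.

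**Figure D2:**
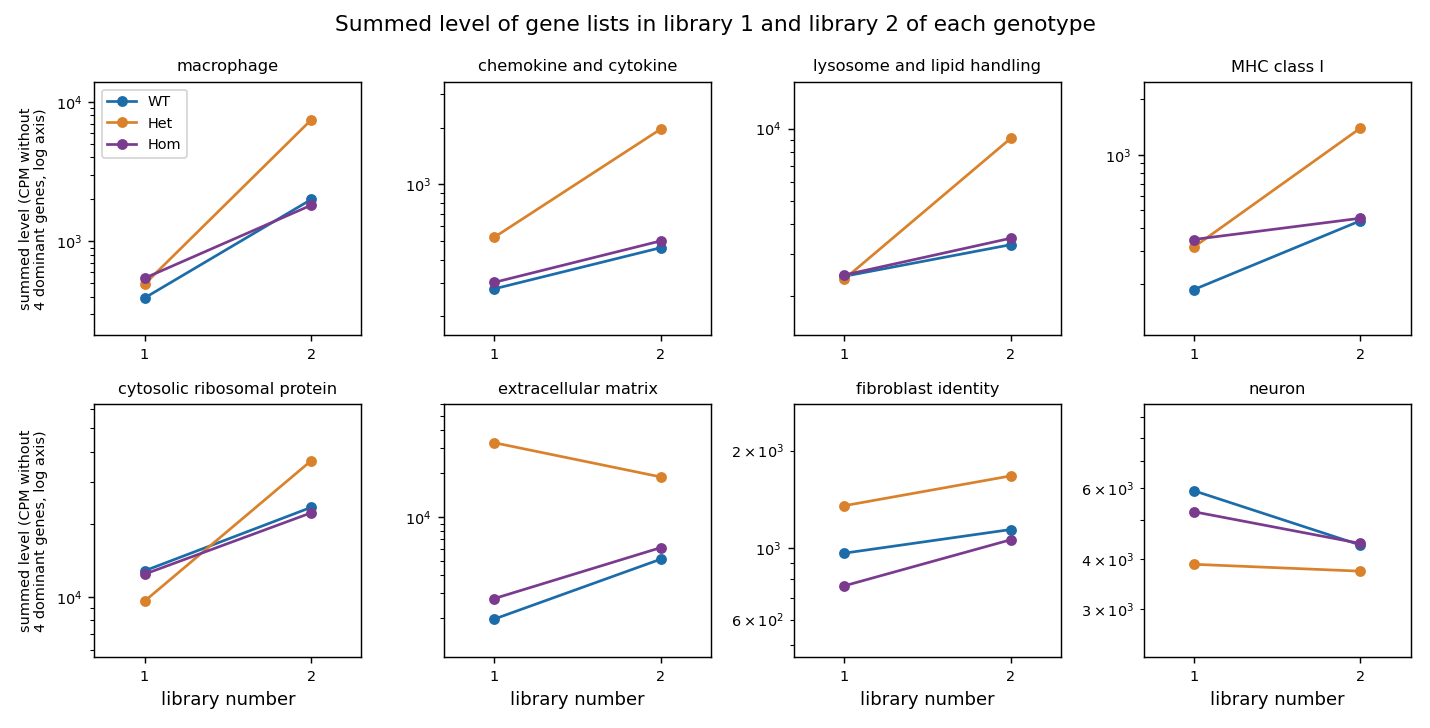
Summed levels (CPM with 4 dominant genes left out of the total, log axes with their own range) of 8 gene lists in library 1 and library 2, with 1 line per genotype. Macrophage, chemokine, lysosome, MHC class I, ribosomal protein and fibroblast identity sums were higher in library 2 of each genotype. The matrix sum went from 32600 to 18900 in Het and from 1970 to 5120 in WT.

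Ribosomal protein genes had higher summed levels in library 2 as well. Of 79 tested cytosolic ribosomal protein genes, whose products form the ribosome, 78 had positive estimates, with a median of 1.29, and in 60 the libraries numbered 2 all lay above those numbered 1, against 6.37% of all genes tested. The sums were 12800 and 23500 in WT, 9580 and 36700 in Het, and in Hom 12400 and 22300, or 24.6 and 45%, 18.4 and 70.4%, and 23.7 and 42.8% of the fibroblast m5C mean. The WT and Hom pairs were alike here (1.83-fold and 1.8-fold), which they were less so for the macrophage list (5.07-fold and 3.34-fold). For both lists the Het pair was the most separated. By edgeR 2 were called, against 0.184% of all genes (19 by DESeq2 and 28 by limma-voom): Rpl29, with 10.4, 5.01 and 13.3 against 122, 328 and 156 (4.45 ± 0.52), and Rplp0, with 176, 154 and 104 against 579, 905 and 467 (2.16 ± 0.36, adjusted p = 0.0469). Ribosomal protein genes have many processed copies in the genome, so reads of these genes could be split between copies and their counts are uncertain. The same holds for a further call, the ferritin light chain gene Ftl1 (2.66 ± 0.44). Rps3 went against the group in Hom, at 1490 and 350.

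**Figure D3:**
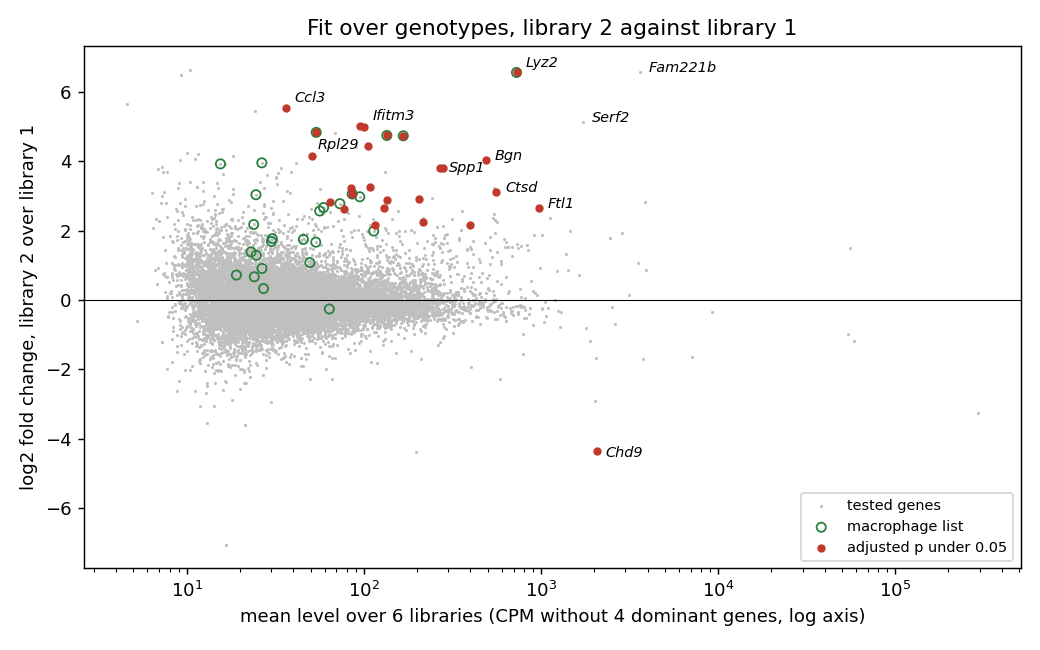
Log2 fold change of library 2 over library 1 from the fit over genotypes against the mean level over 6 libraries (log axis), 1 point per gene for 13589 genes. Red points are the 26 genes with an adjusted p under 0.05, of which Chd9 alone lies below 0; green rings mark the 26 tested macrophage markers.

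In all, edgeR called 25 genes higher and 1 lower in library 2, none with a placeholder name, and in each of the 26 the numbers did not overlap. Beside those above, the higher calls included genes that mesenchymal cells express. Lgals1, a galectin of fibroblasts and many other cells (chr15:78926725-78930465), went from 25.9, 51.8 and 29.2 to 312, 837 and 416 (3.82 ± 0.38) and had nearly the same log2 ratio in the 3 genotypes (3.55, 3.76 and 3.73). Bgn, the matrix proteoglycan biglycan (chrX:73483602-73495933), went from 10.4, 175 and 26.6 to 391, 1860 and 476 (4.04 ± 0.48). Cilp, another matrix protein, Mmp14, a membrane-bound collagenase, Cnn2, a calponin that binds actin, and Capg, an actin-capping protein of phagocytes, had log2 fold changes of 2.83, 2.26, 3.23 and 2.63. At an unadjusted p under 0.05 there were 801 genes, 566 of them higher in library 2.

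The 25 genes called higher were short. Their median gene span was 4790 bases against 28100 for all 13472 tested genes with one, and their median exonic length was 1340 against 4920 bases (coordinates from GENCODE M21). By quartile of span, from 168 bases upward, 18, 7, 0 and 0 genes were called higher, and the median log2 fold change was 0.17, 0.03, -0.04 and -0.1. The called genes also had a higher level in fibroblast than in cortex m5C RIP, with a median log2 difference of 5.76 against -0.0456 for all genes. Across genes this difference correlated with the library 2 over 1 estimate at r = 0.331 (13589 genes, which share libraries and are not independent), and span at r = -0.173. Within genotypes the first correlation was 0.179 in WT, 0.261 in Het and 0.212 in Hom, while that with span was -0.0448 in WT, against -0.166 in Het and -0.126 in Hom.

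Matrix genes did not follow one direction. The summed level of 36 genes was 1970 and 5120 in WT and 2730 and 6150 in Hom, but 32600 and 18900 in Het. The difference between genotypes in this direction was not tested, as each pair is 1 library against 1. Col1a1, a chain of type I collagen (chr11:94936224-94953042), stood at 171 and 955 in WT, 14300 and 4050 in Het, and in Hom 346 and 1340 (1.07 ± 0.91, adjusted p = 0.941). Col1a2, its partner chain, was at 77.6 and 515, 5110 and 1980, and 263 and 613. Col3a1, of type III collagen, was at 31.1 and 191, 2000 and 1190, and 152 and 234. These fibrillar collagens were thus highest in Het library 1 and lowest in WT library 1. Loxl1, which cross-links elastin, was at 448 in Het library 1 and at 159 in Het library 2, against 20.7 to 56.3 elsewhere.

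Other matrix genes had the order of the macrophage genes. Besides Bgn and Mmp14, the proteoglycan gene Dcn (15.5 and 57.9, 26.7 and 195, 7.97 and 44.5; 2.48 ± 0.44, adjusted p = 0.0674) and the protease inhibitor gene Timp1 (3.51 ± 0.65, adjusted p = 0.0744) did not overlap but were not called. Over the list 27 of 35 tested genes had positive estimates, and 2 were called higher, against 0.184% of all genes. The median was 0.41, but 0.14 without WT library 1, 0.16 without WT library 2 and 1.07 without either Het library. Medians within genotypes were 1.13 in WT, -0.23 in Het and 0.67 in Hom. Scaled by total counts alone, the Het value was 0.32, and the median of all genes in the fit was then 0.51. Sparc, a matrix glycoprotein, was higher in library 2 of each genotype (202 and 622, 927 and 2410, 194 and 658), while Twist1, a transcription factor of mesenchyme, was at 202 and 14.5 in Het. For smooth muscle and myofibroblast genes, 10 of 12 estimates were positive (median 1.17, and 1.94 without both Het libraries), and Cnn2 was the 1 call, against 0.184% of all genes. Neuron genes had a median of -0.27 (0.20 with total counts alone) with 0 called by edgeR, DESeq2 or limma-voom and 0 at an unadjusted p under 0.05 by edgeR, and their sums were 5910 and 4330, 3880 and 3730, and 5240 and 4370. The part of these neuron markers in the results was not tested.

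Chd9, encoding a chromatin remodeller of the CHD family (chr8:90828352-91054516), was the single gene called lower in library 2. It stood at 3500, 5960 and 2410 in library 1 and at 208, 129 and 200 in library 2, against 158 in fibroblast input and 45.5 to 116 in fibroblast m5C RIP. In cortex Chd9 was at 1500 in input and at 199 to 451 in m5C RIP. It fell in each genotype, with log2 ratios of -3.91, -5.67 and -3.51 and a fitted value of -4.37 ± 0.59 (adjusted p = 0.013). Scaled by total counts alone the value was -3.96 (adjusted p = 0.0775). It was also not called without WT library 1 (adjusted p = 0.122), without both WT libraries (0.323) or without both Hom libraries (0.273). The next smallest p-values on that side belonged to the sialyltransferase gene St8sia4 (-1.81 ± 0.39), the beta-cell transcription factor gene Mafa (-2.94 ± 0.72), Wtip (-2.27 ± 0.59) and Ap1ar (-1.49 ± 0.39), with adjusted p of 0.139, 0.226, 0.282 and 0.282. St8sia4 was at 9780 in cortex input, against 27.7 to 231 in the 6 Dnmt1 RIP libraries.

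A different set of genes was high in library 2 of WT and Hom but in library 1 of Het. This set was drawn up after its values were seen: 44 genes were at least 4-fold higher in library 2 in WT and Hom and at least 4-fold lower in Het, against 29 genes 4-fold higher in all 3 pairs and 1 lower in all 3. The other 5 combinations of directions held between 0 and 2 genes. Fam221b (chr4:43659622-43669145) stood at 20.7 and 7970 in WT, 5080 and 94.9 in Het, and in Hom 26.6 and 8570. Serf2 was at 25.9 and 3860, 2130 and 181, and 39.9 and 4110. Eif4g2, a translation initiation factor gene, was at 455 and 7770, 4870 and 369, and 415 and 9380. The choice of the set fixes which libraries are high and low. Whether the Het numbers correspond to those of WT and Hom was not tested, and every value over the 3 genotypes depends on it. Hnrnpa2b1 and Ybx1, which encode RNA-binding proteins, and Tob1, an antiproliferative gene, had the same order, as did Ier5l and the cardiac actin gene Actc1. Gm42418, an entry lying over ribosomal RNA sequence on chromosome 17, was at 12300 and 164000, 79100 and 6100, and 12700 and 59600.

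These genes were also abundant in fibroblast input. Of the 44, 37 had more than 3 counts there (84.1%), against 25.5% of all genes tested, and their median input level was 2940 against 0. That library was shallow, with 95107 counts outside the 4 dominant genes and 6006 genes detected, and 3 counts made a level of 31.5. The genes compared were not matched for level, and the part of depth was not tested. Fam221b was at 47300, Eif4g2 at 44500 and Serf2 at 18500 in input. No macrophage marker was among the 44. In the fit over genotypes 0 of them were called by edgeR, DESeq2 or limma-voom, and 0 had an unadjusted p under 0.05 by edgeR: Fam221b had an estimate of 6.59 ± 3.21 (adjusted p = 0.865), since its Het pair ran the other way. Het library 1 also stood apart from the other 5 Dnmt1 RIP libraries in single genes, such as the secreted protease gene Htra1 at 4400 against 46.6 to 92.2, and the ubiquitin ligase gene Rnf6 at 2180 against 18.4 to 77.6. In fibroblast input Htra1 was at 52.6 and Rnf6 at 747.

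**Figure D4:**
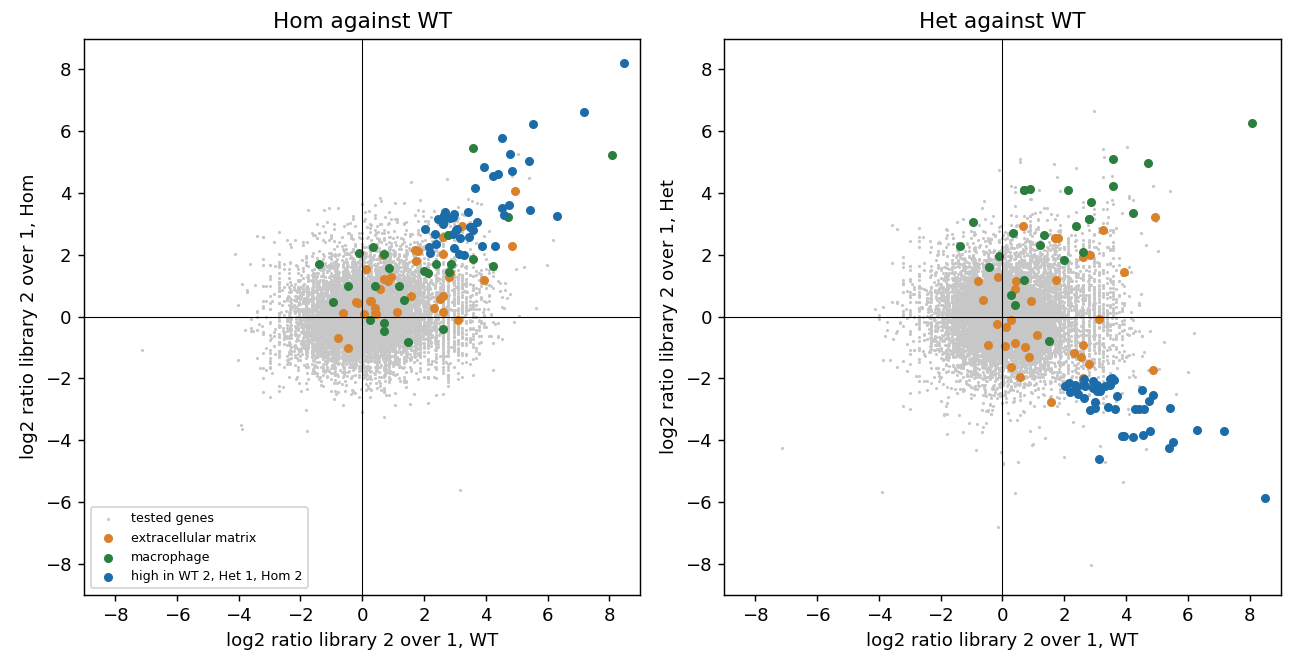
Log2 ratio of library 2 over library 1 (prior count 2) in Hom (left) and Het (right) against that in WT, 1 point per gene for 13589 genes. Macrophage markers (green) lie mostly in the upper right of both panels, whereas the 44 genes high in WT 2, Het 1 and Hom 2 (blue) lie upper right in the first and lower right in the second, as their choice fixes. Matrix genes (orange) spread across both sides of 0 in Het.

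Over all genes the 3 pairs had little in common. Across 13589 genes, Pearson's r between the log2 ratios was -0.00588 for WT and Het, 0.202 for WT and Hom and 0.0589 for Het and Hom, and 50, 55.7 and 52.2% of genes had the same sign. Without the macrophage list the values were -0.016, 0.197 and 0.0475. Among genes with at least 50 counts in both pairs they were -0.217 (2391 genes), 0.648 (2398) and 0.053 (6272). No pair of genotypes shares a library, and genes are not independent, so no p-value goes with these. Macrophage and ribosomal protein sums were higher in library 2 of each genotype, while over all genes the WT and Het pairs showed next to no relation, with 103 genes at least 4-fold higher in both and 106 at least 4-fold apart in opposite directions.

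Mitochondrially encoded genes split between 5 with a nuclear copy compared here and 7 that were not searched for one. On chromosome 1 lies a nuclear stretch whose annotated genes match mt-Co2, mt-Co3, mt-Atp6 and mt-Nd4l in 100% of bases and mt-Nd3 in 99.7% (GENCODE M21 transcripts). All 5 had positive estimates, with a median of 2.65, and 3 were called, against 0.184% of all genes called higher, though mt-Nd3 ran the other way in Hom (63.8 and 37.8). The cytochrome oxidase subunit gene mt-Co2 stood at 41.4 and 437 in WT, 58.5 and 325 in Het, and in Hom 39.9 and 331 (2.93 ± 0.39, adjusted p = 0.013). For mt-Co3 and the ATP synthase subunit gene mt-Atp6 the fold changes were 2.90 ± 0.39 and 2.65 ± 0.37. In contrast the 7 other tested mitochondrial genes, which were not searched for a nuclear copy, all had negative estimates, with a median of -0.73. None was called by edgeR (1 at an unadjusted p under 0.05, mt-Nd6) or DESeq2, while limma-voom called 3 lower. In 6 of the 7 the libraries numbered 2 all lay below those numbered 1, against 5.52% of all genes tested. In 4 of the 5 with a nuclear copy they all lay above, against 6.37%. The most abundant of the 7, mt-Co1, was at 3030 and 2560, 2060 and 2200, and 3010 and 2210. Reads that fit both places equally can be counted for either or for none, so the counts of the 5 genes are uncertain, and the sources used here do not say how they were counted.

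**Figure D5:**
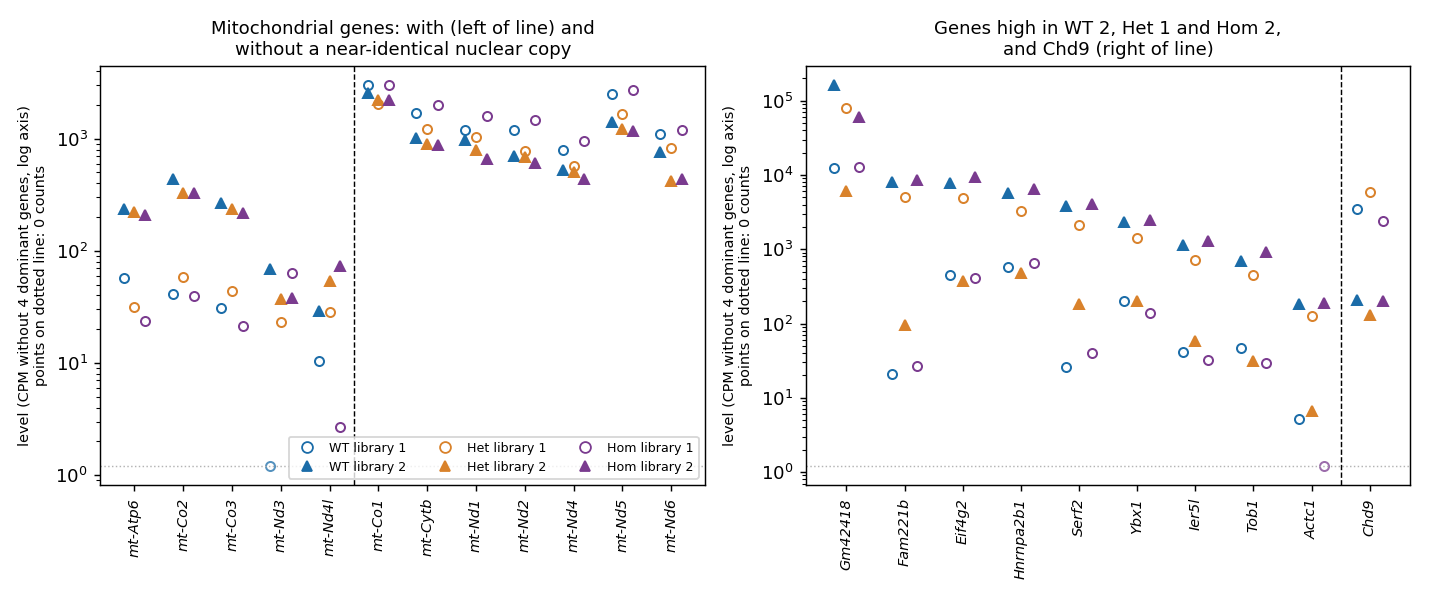
Levels (CPM with 4 dominant genes left out of the total, log axes) in the 6 libraries, open circles for library 1 and filled triangles for library 2. Left, the 5 mitochondrial genes with a near-identical nuclear copy and the 7 not searched for one, which the panel title calls without a copy. Right, 9 of the 44 genes high in WT 2, Het 1 and Hom 2, and Chd9, at 2410 to 5960 in library 1 and 129 to 208 in library 2.

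Genotypes compared differently within each number in these programmes. Among libraries numbered 1, the summed macrophage level of Het was 1.25-fold and that of Hom 1.39-fold the WT level. Among those numbered 2, the values were 3.73-fold and 0.911-fold. For matrix genes, Het was 16.6-fold WT among libraries numbered 1 and 3.68-fold among those numbered 2, and Hom was 1.39-fold and 1.2-fold. Ribosomal protein genes put Het below WT in the first libraries (0.746-fold) and above it in the second (1.56-fold). Each of these ratios compares 1 library with 1, with no replicate, so their differences were not tested.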

How the data were processed

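Counts per gene were deposited by the authors, 1 table per library; the submitters' processing notes name Trim Galore 0.4.1, HISAT2, featureCounts and mm10. The sources used here do not say which annotation or strand setting was used or how reads that fit several places were treated, so overlapping and antisense genes may share reads. Each table lists 31017 symbols, of which 30416 matched 1 gene of GENCODE M21, the source of coordinates and lengths (1-based, mm10). Groups and numbers came from the titles.

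From the raw counts of the 6 Dnmt1 RIP libraries (217173 to 1362757 counts in genes), edgeR 4.0.16 in R 4.3.3 was fitted with genotype and library number as terms. The filter of filterByExpr by genotype (at least 10 counts, and 15 in total) left 13589 genes, scaled by TMM and tested with glmQLFTest after glmQLFit, with 2 residual degrees of freedom, a common biological coefficient of variation of 0.401 and Benjamini-Hochberg adjustment over all genes with a threshold of 0.05. The SE was taken as the estimate over the root of the F statistic. Ratios within a genotype are TMM-normalised log2 CPM with a prior count of 2 and have no test. Levels are CPM with 4 dominant genes left out of the total, and a count of 0 was taken to allow 3 counts. These bounds cover counting error only.

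The fit was tested on simulated data of 13589 genes with 200 changed: 48% of 4-fold and 100% of 16-fold and 64-fold changes were recovered, with 0 false calls. The changed genes had a mean of at least 10 counts and random directions, and all genes had the same coefficient of variation. Recovery of genes at few counts, and false calls where genes vary unequally or run in opposite directions between genotypes, were therefore not tested. Other settings were size factors by RLE, no scaling but total counts, DESeq2 1.42.0, limma-voom (limma 3.58.1), other filters and prior counts, no genotype term, removal of the 4 genes, and leaving out libraries or genotypes. The comparison, the 41 gene lists and the rules were chosen with earlier results of these data known. The rule for named genes took, in each direction, the 12 largest called changes with no overlap between numbers and a mean level of at least 5, or the 5 smallest p where fewer than 5 passed. Added were the 6 largest ratios per direction and genotype among genes with at least 50 counts, up to 5 members with the smallest p per list, all macrophage markers, and Dnmt1, the 4 dominant genes, Fam221b, Xist and Ddx3y. Placeholder names were left out of the first parts, and a few genes that the rule takes are not reported here. Ddx3y, a Y-linked gene, was read in each library at levels of 29.2 to 77.7, and Xist at 16.8 to 50.1. Other genes with matrix, mitochondrial or reversed patterns, and the further marker examples, were named after their values were seen. Python 3.11.15 with pandas 2.3.3 and matplotlib 3.10.9 drew the plots.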

Additional observations from a re-analysis of the deposited data

Results flagged for a closer look

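Several results ran in opposite directions in different genotypes. With 1 library against 1 in each genotype, the difference in direction was not tested. The summed level of matrix genes had a log2 ratio of library 2 over library 1 of 1.38 in WT, -0.79 in Het and 1.17 in Hom. For Fam221b the ratio was 8.49 in WT, -5.87 in Het and 8.21 in Hom, and for Serf2 it was 7.17, -3.71 and 6.62. Ier5l gave 4.78, -3.71 and 5.25, Actc1 gave 4.54, -3.84 and 5.77, and Gm42418 gave 3.87, -3.87 and 2.29. In these genes the Het pair ran against both others. Lars2, the mitochondrial leucyl-tRNA synthetase gene that took 57.7% of Hom library 1, stood alone: 3.17 in WT, -4.19 in Het and -5.61 in Hom.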

How the results depend on the processing

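The 26 genes called for library 2 against library 1 were 57 with total counts alone (all higher in library 2, with a median of 0.51 over all genes), 82 with DESeq2, 93 with limma-voom, 231 with no filter on low counts and 8 without the genotype term; these shared 19, 25, 23, 26 and 8 genes with the 26. Leaving out 1 library gave 10 (without WT library 1) to 317 calls (without Het library 1), with 311 without Het library 2, 86 without Hom library 1 and 80 without Hom library 2. With genotype as a block, the library left alone gives no contrast, so each such fit rests on 2 genotypes. Without both Het libraries 212 genes were called and without both Hom libraries 16. Without both WT libraries edgeR called 0 (697 at an unadjusted p under 0.05; 43 called by DESeq2 and 38 by limma-voom). Lyz2 was called in every setting but this one, with a log2 fold change of 6.08 to 7.26. RLE size factors and removal of the 4 dominant genes kept all 26. Cd68, not called, had a log2 fold change of 1.77, which ranged from -0.04 (without Het library 1) to 3.49 (without Hom library 1) when single libraries were left out. With total counts alone the within-genotype medians were 2.45 for macrophage genes, 1.86 for matrix genes and 2.15 for ribosomal protein genes in Hom, and 2.36 for ribosomal protein genes in Het. Among genes with at least 50 counts in each pair, r between the library differences was -0.217 for WT and Het and 0.648 for WT and Hom. The cause of these changes was not tested beyond the fewer libraries or genes each setting holds.

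The library number as a replicate block left the genotype comparisons at 0 edgeR calls. Unadjusted p under 0.05 numbered 868 without and 891 with the replicate block for Het against WT, 309 and 296 for Hom against WT, and 629 and 681 for Hom against Het. The macrophage median went from 1.75 to 1.64, 0.13 to 0.01 and -1.56 to -1.24. Over all genes, r between the deviations of same-numbered libraries was over 0.1 for WT and Hom (0.202) but not for WT and Het (-0.00588) or Het and Hom (0.0589), so the number was not taken to pair the libraries. Whether some of them share a preparation was not tested. Depth limits WT library 1, where 3 counts make a level of 15.5 and 11 of 30 macrophage markers had no count.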
